A study of Rattus norvegicus with 20 samples.

Results

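The comparison described here is that of ischemic with sham-operated gastrocnemius of the rat, the large calf muscle, by RNA sequencing. Its members were taken from the library labels as all libraries of gastrocnemius, which gave 10 of the 20 libraries of the series, 5 ischemic and 5 sham. All came from Sprague Dawley rats, an outbred strain, with no genetic change and no drug named in the labels. In the ischemic group, titled PAD, blood flow to the hindlimb was blocked by a catheter placed inside the iliac and femoral vessels, and the sham group had a sham procedure. The age and sex of the rats, the time from operation to sampling, the leg sampled and the region of the muscle taken are not stated in the labels. The other 10 libraries are soleus, a slow calf muscle, after the same procedures. The labels do not say that each library is a separate rat, so the p-values below measure only the spread between these libraries.

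Muscle deprived of its arterial supply is known to respond on several levels. Endothelial cells, which line the vessels, sprout in response to vascular endothelial growth factors (VEGF) and rebuild their basement membrane, the sheet of laminin, nidogen and collagen IV beneath them. Muscle fibres can degrade their proteins through ubiquitin ligases such as those of Trim63 and Fbxo32, and can die and regenerate. The rat gastrocnemius is also a mixed muscle: its deep part holds slow, oxidative, capillary-rich fibres with the myosin of Myh7, and its surface holds fast, glycolytic fibres with the myosin of Myh4. A piece cut from it can therefore differ in fibre type from the next piece.

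Poly(A) RNA was read from both ends in stranded libraries. The deposited table gives each gene an expected count and an FPKM value, which is scaled by gene length and by library depth. The total was 67.7 ± 5.67 M counts per ischemic library and 59.7 ± 4.25 M per sham library (SD, n = 5 each; exact permutation p = 0.0317, two-sided, and 0.139 after Benjamini-Hochberg adjustment over 5 library measures; the smallest p that 5 against 5 allows is 0.00794). Genes at 1 FPKM or more numbered 10688 ± 455 in ischemia and 10144 ± 307 in sham (exact permutation p = 0.0556, adjusted 0.139). Skeletal muscle was evident in all 10 libraries: Acta1, skeletal actin, lay between 24431 and 32237 FPKM in ischemia and between 24379 and 33198 FPKM in sham. A library outside the comparison, sham soleus 4, stood apart, with 8048 genes at 1 FPKM where the other 4 had 10644 to 10876. It enters the test through the spread that all 20 libraries share, and counts are given with and without it.

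The pieces of gastrocnemius differed widely in the RNA of slow and fast myosin, used here as a measure of fibre mix. Whether ischemia itself changed these RNAs, or the pieces came from different parts of the muscle, was not tested. Myh7, the slow myosin heavy chain (ENSRNOG00000016983), had 1416, 27.4, 1309.8, 568 and 1561 FPKM in ischemic libraries 1 to 5, against 311, 1864, 37.6, 68.7 and 406 FPKM in sham libraries 1 to 5. Myh4, the fastest of the myosin heavy chains (ENSRNOG00000049695), had 2172, 5081, 3001, 2932 and 3148 FPKM in ischemia, against 3246, 2735, 5923, 6254 and 4177 FPKM in sham. Thus 4 of 5 ischemic libraries had 568 FPKM or more and ischemic library 2 almost none, while in sham library 2 had the most Myh7 of all 10 and libraries 3 and 4 had little. Reads of Myh4 and of Myh8, whose gene models overlap, may be mixed, which leaves the Myh4 level uncertain. Other myosin heavy chains are not in the sum below.

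As a percent of Myh7 and Myh4 FPKM together, Myh7 made up 39.5, 0.536, 30.4, 16.2 and 33.1% in ischemia, against 8.74, 40.5, 0.63, 1.09 and 8.86% in sham. The mean was 24.0% ± 15.6 in ischemia and 12.0% ± 16.5 in sham (SD, n = 5 each). The groups overlapped over almost their whole range, and the difference of 12.0 percentage points did not pass the test (exact permutation p = 0.317, adjusted 0.397). The share of counts from genes of the mitochondrial genome was 24.2% ± 4.82 in ischemia and 18.5% ± 5.82 in sham (exact permutation p = 0.135, adjusted 0.225).

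**Figure D1:**
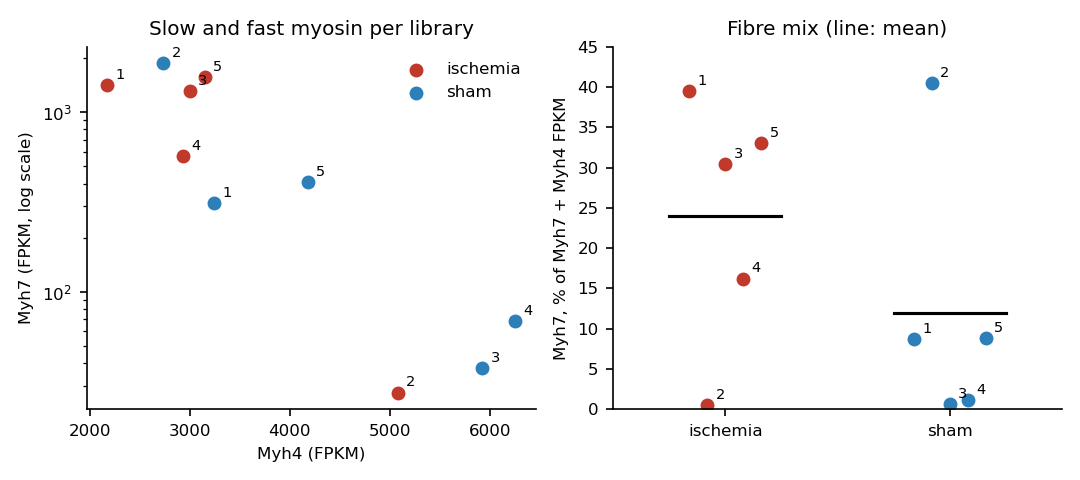
Left, Myh7 FPKM (log scale) against Myh4 FPKM for the 5 ischemic and 5 sham gastrocnemius libraries, numbered by replicate. Right, Myh7 as a percent of Myh7 plus Myh4 FPKM, with the group mean as a line; ischemic library 2 at 0.536% and sham library 2 at 40.5% lie against the order of the group means of 24.0% and 12.0%.

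How strongly other RNA goes with the fibre mix of a piece was measured within the treatments, as the change in each gene per doubling of the Myh7 to Myh4 ratio with ischemia held equal. Of 11693 genes tested, 1772 (15.2%) followed the ratio at an adjusted p below 0.05 (edgeR quasi-likelihood test with Benjamini-Hochberg adjustment), 1050 upward (8.98%) and 722 downward (6.17%). All 13 slow fibre genes followed it upward and all 11 fast fibre genes downward, which the choice of Myh7 and Myh4 fixes in part. Of genes with no part in that choice, 16 of 21 for fatty acid oxidation, 15 of 30 nuclear genes of oxidative phosphorylation, 7 of 13 mitochondrially encoded genes and 12 of 24 angiogenic signals followed it upward. In glycolysis and glycogen use 14 of 25 followed it downward.

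Vegfa, the main growth factor for capillaries, followed the fibre mix. It had 97, 32.4, 95.3, 71.6 and 66 FPKM in ischemia, against 44.3, 113, 20.2, 32.7 and 52.7 FPKM in sham. Its lowest ischemic value was in library 2 and its highest sham value in library 2, which are the libraries whose Myh7 share was lowest and highest of their groups. Its slope was 0.25 ± 0.03 (SE) on the log2 scale per doubling of the ratio (edgeR adjusted p = 0.00171). Hif1a, the oxygen-sensing transcription factor subunit, had a slope of 0.12 ± 0.02 (adjusted p = 0.00592), and Acsl1, which activates fatty acids, one of 0.16 ± 0.03 (adjusted p = 0.00961). The ischemia difference is therefore given below both as measured and at equal fibre mix, that is, with the Myh7 to Myh4 ratio held equal in a fit on the 10 gastrocnemius libraries. The ratio was measured after treatment, so holding it equal may also remove part of an ischemia difference. Values at equal mix are therefore a second description and not a corrected effect. The number of genes that follow the ratio depends on ischemic library 2: without it there were 351; without sham library 3 there were 879.

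**Figure D2:**
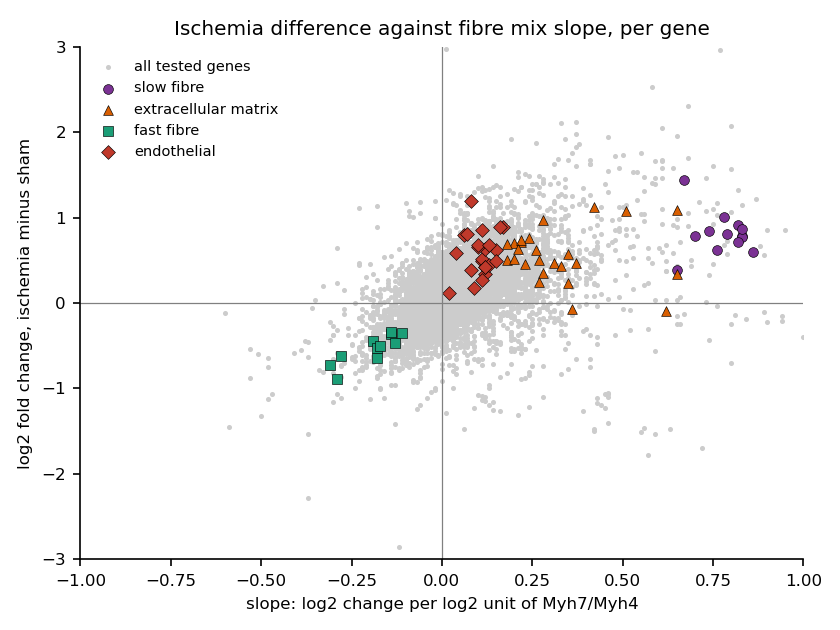
Each point is a tested gene: the x axis gives the log2 change per doubling of Myh7/Myh4 within treatments, the y axis the log2 fold change of ischemia against sham. Slow fibre genes (circles) lie far right and above 0, fast fibre genes (squares) left and below 0, matrix genes (triangles) mostly between 0.15 and 0.4 in slope, and endothelial genes (diamonds) near slopes of 0.1 with higher values in ischemia; 14 genes lie outside the axes.

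No single gene passed the test of ischemia against sham: 0 of 11693 (0%) had an adjusted p below 0.05, and the smallest adjusted p was 0.692 (edgeR quasi-likelihood test, Benjamini-Hochberg over all genes). At an unadjusted p below 0.05 there were 727 genes (6.22%), 507 higher in ischemia (4.34%) and 220 lower (1.88%). With counts scaled by library totals the split was 572 higher and 98 lower. At equal fibre mix 0 genes passed as well (smallest adjusted p 0.350), with 814 at an unadjusted p below 0.05 (6.96%), 484 higher (4.14%) and 330 lower (2.82%). Of the 507 higher genes, 178 (35.1%) followed the fibre mix, and of the 220 lower genes 55 did. Among all 11693 genes 1772 (15.2%) did. At equal mix 280 of the 507 and 117 of the 220 still had an unadjusted p below 0.05 in the same direction. The same gastrocnemius libraries were used to choose these genes, so that is not a separate test.

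Other ways to estimate the spread gave calls. DESeq2 called 11 genes (0.0941%), 9 higher and 2 lower. Without sham soleus 4 in the shared spread, edgeR called 6 (0.0513%), all higher: Itpr2, Fryl, Ccdc88c, Prex2, Afdn and Cd93. Library quality weights gave sham library 5 a weight of 3.58 and ischemic libraries 1 and 2 weights of 0.553 and 0.388. With them 571 genes (4.88%) were called, 340 higher and 231 lower. Weights in the fit at equal fibre mix gave 0 calls. In CPM (counts scaled to library size by TMM) the ranges of both groups were separate for 165 genes (1.41%), 99 higher (0.847%) and 66 lower (0.564%). In FPKM, without that scaling, the split was 104 higher and 33 lower. Without ischemic library 2, the piece with the lowest Myh7 share, there were 726 such genes, 345 higher and 381 lower.

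Genes of vessels were higher in most ischemic pieces. All 23 tested endothelial genes had a higher mean in ischemia (median log2 fold change 0.59), where 5775 of all 11693 genes (49.4%) were higher and their median was 0. At equal fibre mix all 23 were still higher, with a median of 0.43. At an unadjusted p below 0.05 were 7 of the 23 as measured and 8 at equal mix, against 4.34% and 4.14% of all genes, and 0 passed after adjustment. In whole pieces of muscle, more endothelial cells and more RNA per endothelial cell cannot be told apart. Leaving out any 1 gastrocnemius library moved the median between 0.45 and 0.75. The FPKM summed over the 25 endothelial entries of the table was 206, 108, 161, 138 and 137 in ischemia, against 132, 134, 59.8, 70.5 and 70.4 in sham, so that ischemic library 2 lay below sham libraries 1 and 2.

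Cdh5, the cadherin that joins endothelial cells (ENSRNOG00000013324, chromosome 19, 1023683 to 1074365 in the table's coordinates, for which no genome build is stated), had 29.9, 13.9, 23.9, 23.4 and 21.9 FPKM in ischemia, against 13.9, 16.7, 8.32, 11.2 and 8.52 FPKM in sham. In 4 ischemic libraries it exceeded every sham library, and library 2 lay within the sham range. The log2 fold change was 0.86 ± 0.20 (SE, edgeR adjusted p = 0.692), and 0.68 ± 0.16 at equal fibre mix. It was 1 of the 9 genes that DESeq2 called as higher.

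Cd93, a receptor of endothelial cells that binds their matrix (ENSRNOG00000024799), had 12.6, 5.74, 8.42, 8.46 and 5.58 FPKM in ischemia, against 4.04, 4.25, 2.55, 2.92 and 2.92 FPKM in sham. All 5 ischemic libraries lay above all 5 sham libraries. Its log2 fold change was 1.20 ± 0.42 (edgeR adjusted p = 0.728), and at equal fibre mix 1.07 ± 0.18 (adjusted p = 0.350, the smallest in that fit, shared with Itpr2, Fryl and Afdn).

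Tie1, an endothelial receptor kinase that works with the angiopoietin receptor (ENSRNOG00000020173), had 13.1, 4.61, 10.1, 8.93 and 8.26 FPKM in ischemia, against 6.48, 6.19, 2.5, 3.59 and 3.96 FPKM in sham. Ischemic library 2 again lay among the sham libraries, and the 2 highest sham values were those of libraries 1 and 2. The log2 fold change was 0.89 ± 0.27, and 0.63 ± 0.16 at equal fibre mix. Tie1 also followed the fibre mix, with a slope of 0.16 ± 0.03 (edgeR adjusted p = 0.00996).

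Plxnd1, the endothelial receptor through which semaphorins restrain sprouting (ENSRNOG00000025209), had 13.8, 5.38, 12, 8.76 and 9.05 FPKM in ischemia, against 6.82, 6.57, 3.03, 4.2 and 4.32 FPKM in sham. Again 4 ischemic libraries lay above all sham libraries, and library 2 below sham libraries 1 and 2. The estimated log2 fold change was 0.88 ± 0.23, and 0.64 ± 0.15 at equal mix, with a slope of 0.14 ± 0.03 (edgeR adjusted p = 0.0128). The promoters of Tie1 and Plxnd1 are shown because both genes were higher in ischemia and followed the fibre mix, and each holds AGGAAG, a hexamer with the core bound by ETS transcription factors, a family known in endothelial genes. The sequences are RefSeq's on assembly GRCr8, 250 bases before to 50 after the gene start, both on the minus strand, 5′ to 3′, with the hexamer or its reverse complement CTTCCT in capitals.
Tie1, chr5:137304932-137305231: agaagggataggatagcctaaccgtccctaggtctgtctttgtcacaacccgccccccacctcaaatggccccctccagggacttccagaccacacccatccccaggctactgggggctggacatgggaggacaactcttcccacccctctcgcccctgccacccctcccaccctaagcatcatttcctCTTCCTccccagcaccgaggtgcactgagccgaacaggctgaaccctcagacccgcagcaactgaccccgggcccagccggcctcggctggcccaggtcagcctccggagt
Plxnd1, chr4:150715138-150715437: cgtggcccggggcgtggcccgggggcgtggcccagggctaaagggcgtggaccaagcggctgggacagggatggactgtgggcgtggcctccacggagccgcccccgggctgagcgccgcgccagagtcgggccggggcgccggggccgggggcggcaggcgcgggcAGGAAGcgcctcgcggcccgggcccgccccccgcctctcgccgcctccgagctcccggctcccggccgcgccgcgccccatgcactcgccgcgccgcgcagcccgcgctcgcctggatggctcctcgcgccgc
On either strand, 34.3% of 27457 RefSeq promoters of this length hold AGGAAG, so a match is common and describes the window only.

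**Figure D3:**
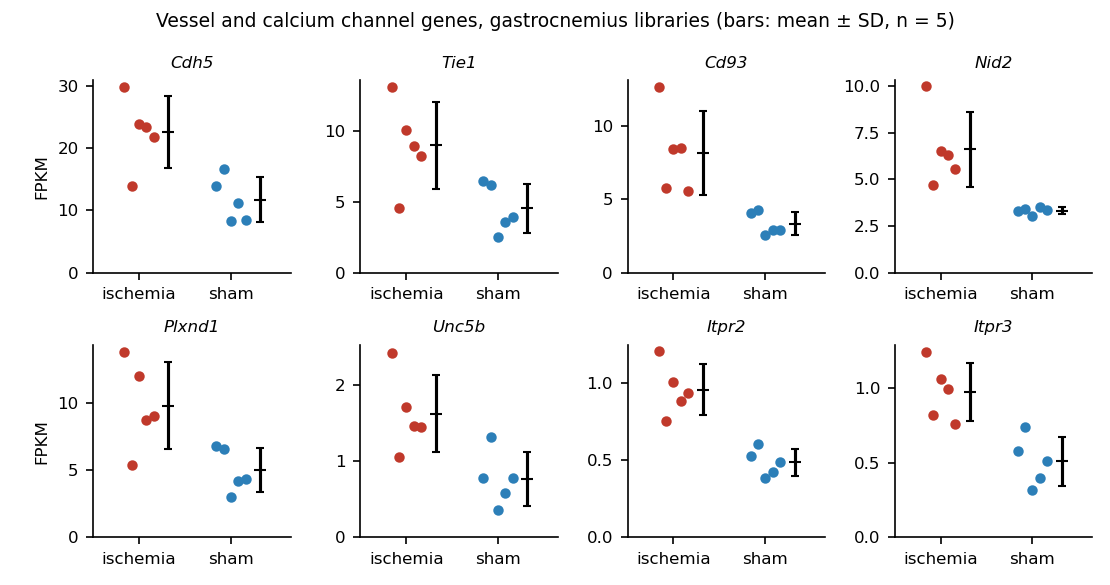
FPKM of 8 genes in the ischemic (red, left) and sham (blue, right) gastrocnemius libraries, in order of library number, with mean ± SD (n = 5). For Cd93, Nid2, Itpr2 and Itpr3 all ischemic libraries lie above all sham libraries, while for Cdh5, Tie1, Plxnd1 and Unc5b ischemic library 2 (the lowest red point) lies within the sham range.

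Signals that guide vessel growth were also mostly higher. Of 24 tested angiogenic signals 22 had higher means in ischemia (median log2 fold change 0.66), and 13 were higher at an unadjusted p below 0.05, against 4.34% of all genes. At equal fibre mix 19 were higher, with a median of 0.53. There 9 were higher and 1 lower at an unadjusted p below 0.05, against 4.14% and 2.82% of all genes. The list shares members with the endothelial list, Kdr, Flt1 and Tek among them. The following members were chosen for their roles after their values were seen. Among ligands, Vegfa averaged 72.5 ± 26.3 FPKM in ischemia and 52.5 ± 35.7 FPKM in sham (log2 fold change 0.39 ± 0.37, and 0.11 ± 0.17 at equal mix). Vegfc, the lymphatic ligand, had a log2 fold change of 0.81 ± 0.31, and 0.67 ± 0.31 at equal mix. Apln, the peptide apelin of sprouting endothelium, had 1.26 ± 0.49, and 0.81 ± 0.25 at equal mix.

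Among receptors the values were uneven. Kdr, the main VEGF receptor, averaged 6.10 ± 2.41 FPKM in ischemia and 3.10 ± 1.81 FPKM in sham (log2 fold change 0.89 ± 0.35, and 0.71 ± 0.23 at equal mix). Flt1, the decoy VEGF receptor, had 0.27 ± 0.33, and 0.15 ± 0.22 at equal mix. Nrp1, a VEGF co-receptor, had 0.72 ± 0.33, and 0.57 ± 0.16 at equal mix. For the angiopoietin receptor Tek it was 0.39 ± 0.28, and for the ligand Angpt1 0.10 ± 0.47. Dll4, the Notch ligand of sprouting tips, had 0.69 ± 0.21, and Notch1 0.64 ± 0.21. None of these passed after adjustment.

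Unc5b, a netrin receptor of endothelium (ENSRNOG00000000567), had 2.43, 1.06, 1.71, 1.47 and 1.45 FPKM in ischemia, against 0.781, 1.32, 0.358, 0.579 and 0.782 FPKM in sham. Sham library 2, the piece with most Myh7, lay above ischemic library 2, and the other 4 ischemic libraries lay above all sham libraries. On the log2 scale the fold change was 1.00 ± 0.25 (edgeR adjusted p = 0.692), and 0.82 ± 0.18 at equal mix.

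Most basement membrane genes had higher means in ischemic pieces, nidogen and laminin chains among them. Of 14 tested genes 13 did, with a median log2 fold change of 0.77; 8 were higher at an unadjusted p below 0.05, against 4.34% of all genes, and 0 passed after adjustment. Without ischemic library 1 the median was 0.51, with 11 of 14 higher. At equal fibre mix 11 were higher, with a median of 0.49 and 7 at an unadjusted p below 0.05, against 4.14% of all genes. Summed FPKM over the list ran from 227 (library 2) to 1004 (library 1) in ischemia and from 169.9 (library 3) to 733 (library 1) in sham, so that the groups overlapped. Nid2, which links laminin to collagen IV (ENSRNOG00000000341, chromosome 15, 4894213 to 4951917), had 9.97, 4.69, 6.51, 6.3 and 5.54 FPKM in ischemia, against 3.32, 3.39, 3.02, 3.49 and 3.36 FPKM in sham. All ischemic libraries lay above all sham libraries, and the sham libraries were nearly alike. The log2 fold change was 0.89 ± 0.20 (edgeR adjusted p = 0.692), and 0.82 ± 0.15 at equal mix (adjusted p = 0.419). Its slope on the fibre mix was 0.04 ± 0.03 (adjusted p = 0.334).

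Lama5, the laminin chain of mature vessels, had 2.5, 1.43, 1.88, 1.72 and 1.45 FPKM in ischemia, against 1.15, 1.27, 0.911, 0.931 and 0.697 FPKM in sham. Again the groups did not overlap. Its log2 fold change was 0.76 ± 0.21, and 0.69 ± 0.17 at equal mix. Lamb2 and Lama2, chains of the muscle fibre's own basement membrane, were near no difference, with -0.06 ± 0.13 and 0.10 ± 0.25. They were chosen after their values were seen, as was Col4a1, a chain of collagen IV, with 1.05 ± 0.31 and 0.70 ± 0.22 at equal mix.

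Mural cells are the pericytes and smooth muscle around vessels. Of 13 mural genes 11 had higher means, with a median log2 fold change of 0.30, and 9 did at equal mix, with a median of 0.14. The median as measured was 0.48 without sham library 2 and 0.61 with library quality weights. Notch3, the Notch receptor of mural cells, had 7.25, 4.51, 5.23, 3.79 and 4.43 FPKM in ischemia, against 3.33, 4.46, 2.63, 2.82 and 2.59 FPKM in sham, with overlap from sham library 2. The log2 fold change was 0.58 ± 0.21, and 0.50 ± 0.16 at equal mix. Cspg4, the pericyte proteoglycan NG2, had 1.09 ± 0.35, and 0.51 ± 0.22 at equal mix, and followed the fibre mix with a slope of 0.29 ± 0.04 (edgeR adjusted p = 0.0028).

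Of the 3 inositol trisphosphate (IP3) receptors, the calcium release channels of the endoplasmic reticulum, 2 were higher. Itpr2 (ENSRNOG00000001804) had 1.21, 0.757, 1.01, 0.888 and 0.936 FPKM in ischemia, against 0.529, 0.606, 0.385, 0.424 and 0.492 FPKM in sham. Itpr3 had 1.24, 0.82, 1.06, 0.99 and 0.754 FPKM in ischemia, against 0.577, 0.739, 0.317, 0.398 and 0.508 FPKM in sham. In FPKM neither gene overlapped between the groups, but in CPM Itpr3 did. Itpr2 had a log2 fold change of 0.89 ± 0.27 and Itpr3 one of 0.85 ± 0.19, and 0.79 ± 0.13 and 0.76 ± 0.17 at equal mix. Itpr1 had -0.06 ± 0.29. Itpr2 had the smallest p of all genes at equal mix (6.97e-05, edgeR adjusted p = 0.350).

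Pcdh1, a protocadherin of epithelium and airways (ENSRNOG00000060410), had 1.87, 1.2, 2.03, 2.23 and 1.67 FPKM in ischemia, against 0.95, 1.06, 0.736, 0.791 and 0.721 FPKM in sham. The groups did not overlap, and the log2 fold change was 1.00 ± 0.21, the smallest p of all (0.000111, edgeR adjusted p = 0.692). It was 0.89 ± 0.17 at equal mix. Afdn, afadin of the adherens junction, had 4.39, 2.49, 3.59, 3.78 and 3.19 FPKM in ischemia, against 1.56, 2.38, 1.14, 1.69 and 1.81 FPKM in sham. Ischemic library 2 was only just above sham library 2, and the log2 fold change was 0.94 ± 0.39, and 0.81 ± 0.14 at equal mix.

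Fryl, a large scaffold protein related to the fly gene furry, had 2.56, 2.26, 2.2, 2.3 and 2.13 FPKM in ischemia, against 1.08, 1.54, 1.4, 1.45 and 1.26 FPKM in sham. Its groups stood apart with little spread within either, and its slope on the fibre mix was -0.02 ± 0.02. On the log2 scale the fold change was 0.68 ± 0.31, with the error of the spread shared by 20 libraries, and 0.71 ± 0.12 at equal mix. Ano1, a calcium-activated chloride channel, had 1.00 ± 0.23, and 0.76 ± 0.20 at equal mix, with overlap. Abca8a, a lipid transporter, had 0.69 ± 0.19, and 0.56 ± 0.10 at equal mix.

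Among secreted and signalling proteins, Igfbp3, a carrier of insulin-like growth factors, had 6.47, 4.73, 4.43, 3.49 and 2.89 FPKM in ischemia, against 3.07, 2.69, 1.55, 1.52 and 1.63 FPKM in sham. Only ischemic library 5 lay within the sham range, below sham library 1. Its log2 fold change was 0.99 ± 0.25, and 0.95 ± 0.26 at equal mix. Bmp5, a bone morphogenetic protein, had 1.05 ± 0.25, and 0.93 ± 0.23 at equal mix. Enpp1, which makes pyrophosphate from ATP, had 0.72 ± 0.17, and 0.60 ± 0.16 at equal mix. Rapgef5, an exchange factor for Rap GTPases, had 1.20 ± 0.30, and 0.99 ± 0.21 at equal mix.

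Ndrg4 had a log2 fold change of 1.92 ± 0.48 with a wide spread: 3.43, 0.224, 2.13, 2.48 and 1.48 FPKM in ischemia, against 0.859, 0.345, 0.188, 0.364 and 0.592 FPKM in sham. Ischemic library 2 was below 4 of the sham libraries. At equal mix the log2 fold change was 1.09 ± 0.51. Sh3pxd2b, an adaptor of podosomes, the matrix-degrading contacts of invading cells, had 1.60 ± 0.41, and 1.37 ± 0.28 at equal mix, with no overlap. Kcnn1, a small-conductance potassium channel, had 0.94 ± 0.24, and 0.75 ± 0.27 at equal mix. Acss3, a mitochondrial acyl-CoA synthetase, had 0.55 ± 0.15, and 0.45 ± 0.12 at equal mix. All 24 genes with the smallest p in either direction kept their sign at equal mix, and 22 of them had a smaller difference there. At an unadjusted p below 0.05, 506 of the 507 higher and all 220 lower genes also kept their sign. Their median log2 fold changes were 0.75 and -0.44 as measured, and 0.54 and -0.32 at equal mix. The 24, the 507 and the 220 genes were all chosen by p in gastrocnemius libraries that the equal-mix fit uses again. Their kept signs are therefore not a separate test.

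Most atrophy genes, ubiquitin ligases among them, had lower means. Of 21 atrophy and proteolysis genes 17 had lower means in ischemia (median log2 fold change -0.24), and 5 were lower at an unadjusted p below 0.05, against 1.88% of all genes. At equal mix 16 were lower, with a median of -0.22, and only 1 of the 21 followed the fibre mix. Leaving out any 1 gastrocnemius library moved the median between -0.29 and -0.21. Summed FPKM over the list was 684, 649, 708, 586 and 707 in ischemia, against 661, 782, 807, 1108 and 765 in sham.

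Trim63, the ubiquitin ligase MuRF1 that marks myosin for degradation (ENSRNOG00000016543, chromosome 5, 152533349 to 152547179 in the table's coordinates), had 91.3, 80, 97.9, 72.5 and 81.3 FPKM in ischemia, against 92.7, 106, 135, 146 and 113 FPKM in sham. In FPKM only ischemic library 3 reached the sham range, above sham library 1, and in CPM the groups did not overlap. The log2 fold change was -0.58 ± 0.19 (edgeR adjusted p = 0.728), and -0.48 ± 0.14 at equal mix. Its promoter is shown because Trim63 is a target of the FoxO factors in muscle and holds the forkhead heptamer GTAAACA, here as its reverse complement TGTTTAC in capitals (RefSeq, GRCr8, plus strand, 5′ to 3′).
Trim63, chr5:151816986-151817285: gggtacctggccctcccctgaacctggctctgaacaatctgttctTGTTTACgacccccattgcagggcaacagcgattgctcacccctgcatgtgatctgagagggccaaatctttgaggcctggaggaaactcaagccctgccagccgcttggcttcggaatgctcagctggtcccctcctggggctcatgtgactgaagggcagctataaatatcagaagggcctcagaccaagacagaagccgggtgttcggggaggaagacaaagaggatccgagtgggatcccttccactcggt
GTAAACA or its complement is found in 3.76% of 27457 promoters of this length, and the match describes the window only. The Trim63 window also holds AGGAAG, the hexamer marked in Tie1 and Plxnd1, left here in small letters.

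Fbxo32, the ubiquitin ligase atrogin-1 and the usual partner of Trim63 as an atrophy marker, had 24.6, 37.3, 41.3, 27.4 and 29.4 FPKM in ischemia, against 27.9, 38.5, 38.4, 167 and 54 FPKM in sham. The groups overlapped, and the sham mean of 65.1 FPKM rests largely on library 4. The estimated log2 fold change was -1.11 ± 0.49 (edgeR adjusted p = 0.799), and -0.73 ± 0.47 at equal mix. Foxo4, a FoxO transcription factor whose gene model overlaps another on the same strand, had 27.2, 53.2, 39, 35.9 and 57.4 FPKM in ischemia, against 38.8, 58.1, 64.7, 67.9 and 57.7 FPKM in sham (-0.51 ± 0.21). Cdkn1a, the cell cycle inhibitor p21, chosen after its values were seen, was the list's 1 member higher at an unadjusted p below 0.05. It had 6.55 ± 9.96 FPKM in ischemia and 2.40 ± 0.624 FPKM in sham (log2 fold change 1.28 ± 0.60). Its ischemic SD exceeded its ischemic mean, so that mean rests largely on the highest library.

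**Figure D4:**
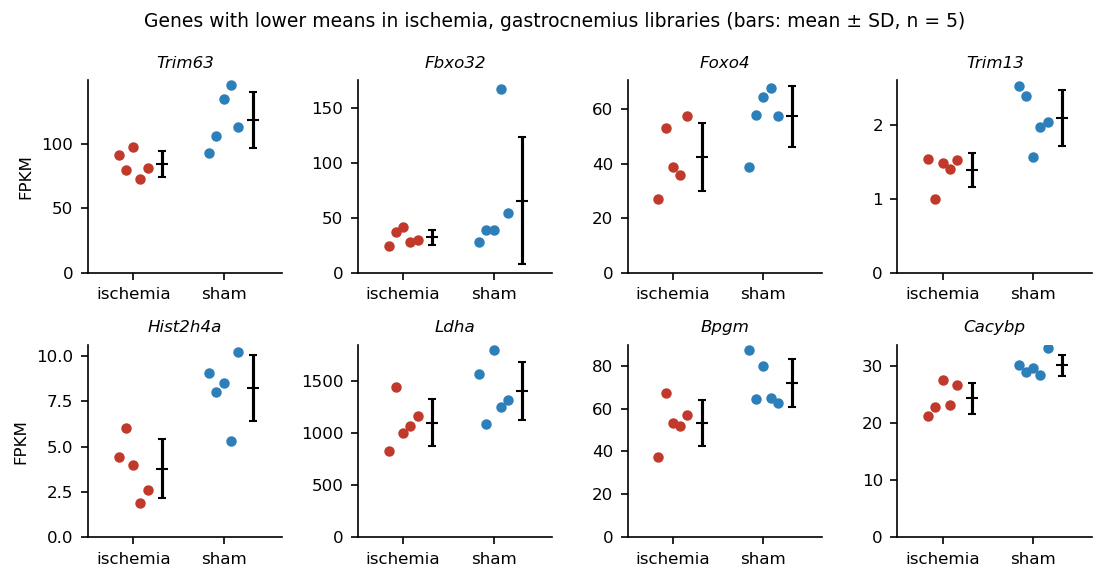
FPKM of 8 genes with lower means in ischemia, in the ischemic (red, left) and sham (blue, right) gastrocnemius libraries, in order of library number, with mean ± SD (n = 5). Trim13 and Cacybp do not overlap between the groups, and for Fbxo32 sham library 4 at 167 FPKM stands far above the rest.

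Trim13, a ubiquitin ligase of the endoplasmic reticulum (ENSRNOG00000009075), had 1.54, 1, 1.49, 1.41 and 1.53 FPKM in ischemia, against 2.54, 2.4, 1.57, 1.98 and 2.04 FPKM in sham. The groups did not overlap, with ischemic library 1 just under sham library 3. The log2 fold change was -0.68 ± 0.18 (edgeR adjusted p = 0.692), and -0.78 ± 0.17 at equal mix. Hist2h4a, a histone H4 gene, had 4.43, 6.01, 3.98, 1.88 and 2.63 FPKM in ischemia, against 9.08, 8.02, 8.51, 5.3 and 10.2 FPKM in sham (-1.19 ± 0.33). Histone H4 genes are near-identical copies and many histone RNAs lack a poly(A) tail, so its level is uncertain.

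Cacybp, a calcyclin-binding partner of ubiquitin ligases, had 21.3, 22.8, 27.5, 23.2 and 26.7 FPKM in ischemia, against 30.2, 29, 29.7, 28.4 and 33.1 FPKM in sham. The groups did not overlap, and the log2 fold change was small, at -0.39 ± 0.12. Bpgm, which makes the haemoglobin ligand 2,3-bisphosphoglycerate, had 37.3, 67.2, 53.4, 51.9 and 56.9 FPKM in ischemia, against 87.2, 64.6, 80, 65 and 62.5 FPKM in sham (-0.50 ± 0.16). Its only overlap came from ischemic library 2. Isy1, a splicing factor, had -0.42 ± 0.14 with no overlap, Trappc6b, of vesicle tethering, -0.50 ± 0.15, and Anp32b, a histone chaperone, -0.41 ± 0.13.

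Zfp93, a zinc finger gene, had the lowest log2 fold change of all tested genes, -3.59 ± 1.12. Its values were all or none: 0.0501, 0.08, 1.33, 0.0305 and 0 FPKM in ischemia, against 4.45, 0.0431, 6.13, 3.54 and 2.41 FPKM in sham. The values of 4 ischemic libraries and of sham library 2 were near 0, so the groups overlap in spite of the size of the difference.

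Metabolic genes differed less at equal fibre mix than as measured. Glycolysis and glycogen genes had 17 of 25 lower means in ischemia (median log2 fold change -0.29), and -0.15 at equal mix. The median as measured was -0.50 without ischemic library 2 and -0.16 without ischemic library 1. Ldha, lactate dehydrogenase A, had 825, 1437, 1002, 1063 and 1164 FPKM in ischemia, against 1566, 1087, 1796, 1249 and 1317 FPKM in sham, and its highest ischemic and lowest sham values were both those of library 2. Its log2 fold change was -0.43 ± 0.21, and -0.27 ± 0.15 at equal mix. Hk1, the hexokinase of most tissues other than muscle, had 0.77 ± 0.28, and 0.47 ± 0.21 at equal mix.

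Fatty acid oxidation had 18 of 21 genes higher in ischemia as measured, with a median of 0.12, and 1 of 21 at equal mix, with a median of -0.07. Nuclear genes of oxidative phosphorylation had 26 of 30 higher, with a median of 0.09, and 11 of 30 at equal mix, with a median of -0.02. The 13 mitochondrially encoded genes were all higher (median 0.29), and 11 were at equal mix, with a median of 0.15. With 1 library left out these medians as measured ran from 0.03 (without sham library 3) to 0.38 (without sham library 2) for fatty acid oxidation, from 0.01 (without sham library 4) to 0.18 (without sham library 2) for the nuclear genes, and from 0.18 (without sham library 3) to 0.39 (without sham library 2) for the mitochondrially encoded genes. With library totals the equal-mix median of the nuclear genes was 0.03. For Mt-co1, a subunit of cytochrome oxidase, ischemic library 2 had 25616 FPKM and the other ischemic libraries 46044 to 48788 FPKM. Ppargc1a, the coactivator of mitochondrial biogenesis, had 7.07, 4.43, 13, 6.32 and 5.78 FPKM in ischemia, against 1.89, 7.77, 2.67, 4.62 and 5.04 FPKM in sham, with 0.66 ± 0.34 and 0.46 ± 0.35 at equal mix.

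The contractile genes differed with the mix. All 13 slow fibre genes had higher means in ischemia, with a median of 0.78, and all 11 fast fibre genes lower means, with a median of -0.50. At equal mix the medians were -0.26 and -0.20, a comparison that holds Myh7 and Myh4 equal by construction. The slow fibre median as measured was 1.82 without sham library 2 and 0.48 without sham library 3, and that of the fast fibre genes was -0.78 without ischemic library 2. Myoz2, of the slow fibre Z-disc, had 616, 6.42, 288, 262 and 305 FPKM in ischemia, against 147, 377, 11.3, 26.7 and 171 FPKM in sham.

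**Figure D5:**
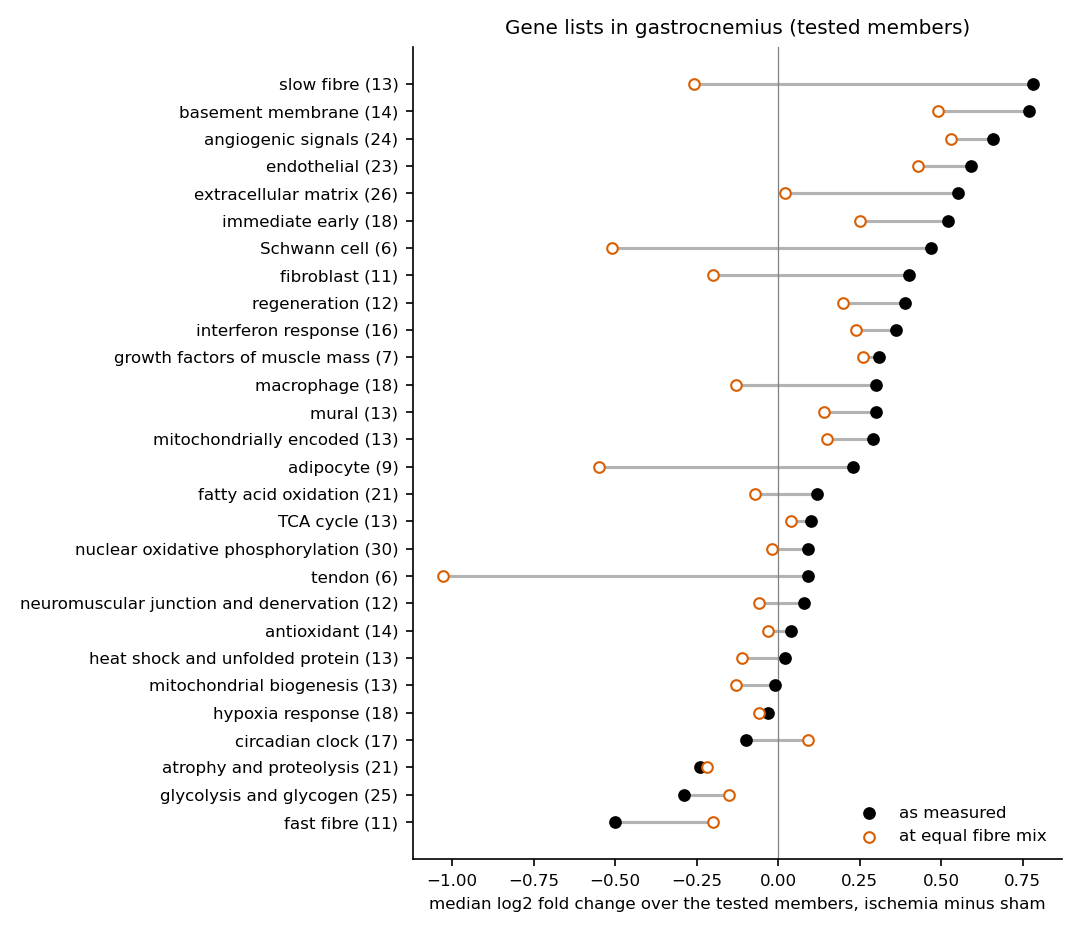
Median log2 fold change of ischemia against sham over the tested members of each gene list (number in brackets), as measured (filled points) and at equal fibre mix (open points). Endothelial, angiogenic and basement membrane medians stay above 0.4 and that of atrophy genes stays near -0.2, while those of the matrix, fibroblast and macrophage lists move to 0.02, -0.20 and -0.13 (0.24, 0.22 and 0.10 with library quality weights).

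Matrix, fibroblast and macrophage genes were mostly higher as measured. Fewer of them were higher at equal fibre mix, to an extent that depended on library weights. In the extracellular matrix 24 of 26 genes had higher means, with a median log2 fold change of 0.55, and 14 did at equal mix, with a median of 0.02. Fibroblast genes had 11 of 11 and then 5 of 11 higher, with medians of 0.40 and -0.20, and macrophage genes 16 of 18 and then 5 of 18, with medians of 0.30 and -0.13. With library quality weights the equal-mix medians were 0.24, 0.22 and 0.10, with 18 of 26, 6 of 11 and 11 of 18 higher. In these lists 7 of 26, 3 of 11 and 1 of 18 genes followed the fibre mix upward, against 8.98% of all genes. Ischemic library 1 was highest in many of these genes: without it the medians as measured were 0.23, 0.16 and 0.01, with 19 of 26, 7 of 11 and 9 of 18 higher. Leaving out sham library 1 gave medians of 0.98, 0.86 and 0.73, with all members of these lists higher. Loxl1, an enzyme that crosslinks elastin, had 22, 1.05, 7.37, 6.73 and 5.88 FPKM in ischemia, against 7.34, 3.78, 1.03, 2.06 and 3.83 FPKM in sham (1.12 ± 0.58, and 0.14 ± 0.47 at equal mix).

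Markers of tissues that lie between the fibres were highest in library 1 of each group. Summed over 10 Schwann cell genes, FPKM was 96.2, 9.18, 23.9, 22.5 and 22.1 in ischemia, against 55.4, 18.9, 9.07, 17.7 and 19.0 in sham. Over 10 adipocyte genes it was 289.7, 51.8, 85.0, 105 and 111 in ischemia, against 205, 104, 55.8, 67.5 and 59.7 in sham. Over 7 tendon genes it was 192, 8.6, 86.1, 81.7 and 69.2 in ischemia, against 157, 34.9, 4.0, 14 and 72.5 in sham. Without ischemic library 1 the median log2 fold changes were -0.73, -1.02 and -0.43, in place of 0.47, 0.23 and 0.09, and without sham library 1 they were 0.92, 1.29 and 0.85. The part of these tissues in the matrix, fibroblast and macrophage values was not tested.

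Neutrophil markers were near 0 in both groups: 0 of 8 passed the filter, and their summed FPKM ran from 0.0787 to 2.41 in ischemia and from 0.0159 to 1.21 in sham. Of 10 lymphocyte genes only Cd4, which rat macrophages carry too, was tested, with 6.36 ± 3.48 FPKM in ischemia and 4.43 ± 2.66 FPKM in sham. Of 11 inflammatory mediators only the chemokine gene Ccl2 was tested, with 1.40 ± 0.730 FPKM in ischemia and 1.57 ± 1.21 FPKM in sham, and Cxcl2 was listed at 0 in all 10 libraries.

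Genes of the response to low oxygen did not share a direction. Of 18 hypoxia genes 9 had higher and 9 lower means in ischemia; the median log2 fold change was -0.03 (0.07 with counts scaled by library totals), and at an unadjusted p below 0.05 were 4 lower and 1 higher, against 1.88% and 4.34% of all genes. Hif1a had 9.96, 4.59, 8.63, 6.6 and 7.25 FPKM in ischemia, against 5.2, 7.48, 3.46, 4.84 and 5.21 FPKM in sham (0.41 ± 0.31, and 0.22 ± 0.11 at equal mix). Ankrd37, a HIF target, had 0.811, 0.474, 0.595, 0.562 and 0.496 FPKM in ischemia, against 1.15, 0.902, 0.639, 1.64 and 0.891 FPKM in sham (-0.91 ± 0.35). Mxi1, a Myc antagonist induced by HIF, had -0.39 ± 0.16.

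Stress and repair lists were mixed. Of 12 regeneration genes 10 had higher means, with a median log2 fold change of 0.39, and 0.20 at equal mix. With library quality weights 7 of the 12 were higher and the median as measured was 0.01, and without ischemic library 1 it was 0.25. Actc1, the cardiac actin of immature fibres, had 153, 4.06, 37.2, 20.4 and 35.3 FPKM in ischemia, against 11.1, 38.3, 5.22, 6.36 and 7.58 FPKM in sham, and followed the fibre mix with a slope of 0.50 ± 0.09 (edgeR adjusted p = 0.00922). Immediate early genes had 17 of 18 higher, with a median of 0.52, which was 0.11 without ischemic library 1, 0.84 without sham library 2 and 0.38 with weights. At equal mix 13 of 18 were higher, with a median of 0.25. That value depends on the measure of the mix and on the weighting: with the Myh7 percent in place of the ratio 9 of 18 were higher and the median was 0, and with weights 10 of 18 were higher and the median was 0.01. Interferon response genes had 16 of 16 higher means (median 0.36), and 15 of 16 at equal mix (median 0.24), but 0 were at an unadjusted p below 0.05.

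Heat shock genes had 7 of 13 higher, with a median of 0.02. Dnajb1, a cochaperone, had 6.72, 3.42, 3.97, 3.7 and 3.66 FPKM in ischemia, against 3.3, 2.74, 2.5, 2.21 and 3.04 FPKM in sham, with no overlap (0.54 ± 0.22). Hspa8, the constitutive chaperone it serves, whose gene holds small nucleolar RNA genes, lay in the opposite order, with 309, 291, 289, 273 and 305 FPKM in ischemia, against 331, 384, 311, 321 and 326 FPKM in sham (-0.27 ± 0.12). Antioxidant genes had 7 of 14 higher, with a median of 0.04, and Nqo1, a quinone reductase, had -0.34 ± 0.21. Among factors of muscle mass, of which 6 of 7 were higher, Igf1, insulin-like growth factor 1, had 7.91, 2.99, 3.03, 4.11 and 2.72 FPKM in ischemia, against 3.48, 2.11, 1.49, 1.29 and 2.75 FPKM in sham (0.80 ± 0.31).

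In the lists that remain, few members differed. The tricarboxylic acid cycle had 10 of 13 higher, with a median of 0.10, and synapse and denervation genes 7 of 12, with a median of 0.08. Mitochondrial biogenesis had 6 of 13 higher, with a median of -0.01 (0.09 with library totals), and the circadian clock 6 of 17, with a median of -0.10 (0.01 on log2 FPKM + 0.1). Only 4 of 13 cell cycle genes were tested, of which 3 were higher, with a median of 0.11. Of 3 erythrocyte genes tested 1 was higher, with a median of -0.10 (0.24 on log2 FPKM + 1).

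The response of gastrocnemius was set against that of soleus by the test of the difference between them. Of 11693 genes 0 (0%) passed, with 758 (6.48%) at an unadjusted p below 0.05. Hs3st1, a heparan sulfate sulfotransferase, came closest, with 2.57 ± 0.431 FPKM in ischemic and 3.63 ± 0.691 FPKM in sham gastrocnemius, against 2.63 ± 0.790 FPKM in ischemic and 0.708 ± 0.181 FPKM in sham soleus. The difference of the responses was -2.03 ± 0.33 on the log2 scale (edgeR adjusted p = 0.0652), and Hs3st1 passed without sham soleus 4 (adjusted p = 0.0148, difference -2.17). Next by p, Birc3 had -0.25 ± 0.21 in gastrocnemius and 1.10 ± 0.21 in soleus, a difference of -1.35 ± 0.30 (edgeR adjusted p = 0.721). Enpp2 had -0.01 ± 0.16 and 0.89 ± 0.16, a difference of -0.90 ± 0.22 (edgeR adjusted p = 0.721). Nid2, Trim63 and Unc5b were not chosen by that p. Nid2 had 0.89 ± 0.20 in gastrocnemius and 1.14 ± 0.20 in soleus, a difference of -0.25 ± 0.28. Trim63 had -0.58 ± 0.19 and -0.64 ± 0.19, a difference of 0.06 ± 0.27. For Unc5b the values were 1.00 ± 0.25 in gastrocnemius and 0.15 ± 0.25 in soleus, a difference of 0.86 ± 0.36 (adjusted p = 0.721).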

How the data were processed

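The authors deposited 1 table with an expected count and an FPKM value per gene and library for 21926 gene entries, per the file headers. The aligner, counter, genome build and annotation are not named in the sources used here, and no unique molecular identifiers are named. Between 28.3 and 32.4% of small expected counts (up to 40) were multiples of 4, a trait of the deposited values whose origin was not tested. Expected counts were rounded to whole numbers. A gene was tested if 5 or more of the 20 libraries reached 1 FPKM (11693 genes). All 20 libraries were fitted with 4 group means by edgeR 4.0.16 (robust quasi-likelihood test, TMM scaling, R 4.3.3), so that they share an estimate of the spread, with Benjamini-Hochberg adjustment over all genes at 0.05. The SE is the log2 fold change divided by the root of F. Equal fibre mix and the slope come from the 10 gastrocnemius libraries with treatment and log2((Myh7 FPKM + 1)/(Myh4 FPKM + 1)) as terms. Alternatives used DESeq2 1.42.0 and limma 3.58.1, and library measures an exact permutation test (scipy 1.17.1). The fits were tested on simulated data.

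The comparison, the 34 gene lists and the tests were chosen with earlier results of these data known. Genes were named by rule: the 14 higher and 10 lower genes of smallest p that carry a symbol and average 1 FPKM or more in whichever group is higher, the 5 and 5 of smallest p at equal mix, the 2 members of smallest p in each list, 8 panel genes and the 3 genes of smallest p for the difference from soleus. Genes called only under an alternative, and those stated so in the text, were chosen after their values were seen. Replicate numbers were not taken to pair the ischemic with the sham gastrocnemius libraries. The deviations of same-numbered libraries correlated between -0.494 and 0.464, and only ischemic library 1 had the same-numbered sham library as its closest match. A shared origin of same-numbered libraries was not tested. Same-numbered gastrocnemius and soleus libraries of a treatment correlated between 0.00389 and 0.423 in ischemia and between -0.203 and 0.308 in sham. The same-numbered soleus library was the closest match of ischemic gastrocnemius libraries 1, 3 and 5 and of sham libraries 2 and 5. Not all correlations were above 0.1, so the numbers were not taken to pair the muscles either. The test of the response difference treats all 20 libraries as separate, and whether the muscles share rats was not tested. A rat that gave both muscles is not stated in the labels.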

Additional observations from a re-analysis of the deposited data

Results flagged for a closer look

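In 26 of 214 sets of 5 libraries examined, 1 library stood far from the other 4 by Dixon's criterion. The rate of about 1 set in 20 that goes with this criterion holds for independent, normal values. The sets here share the same libraries and hold genes chosen by p or list, so 26 cannot be set against that rate. Of the 26 flagged sets 16 were in ischemia and 10 in sham, and they gathered in ischemic library 1 (9) and sham library 2 (7). No explanation was weighed.

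Ischemic library 1 stood high in Actc1 with 153 FPKM (others 4.06 to 37.2), Comp with 4.75 (0.0963 to 0.795), Dnajb1 with 6.72 (3.42 to 3.97) and Ier5 with 10.6 (0.993 to 2.71). It also stood high in Igf1 with 7.91 (2.72 to 4.11), Pparg with 3.13 (0.487 to 0.922), Prex2 with 2.05 (1.36 to 1.5), Prx with 2.32 (0.38 to 0.793) and Sh3pxd2b with 2.3 (0.702 to 1.08). Ischemic library 2 stood high in Adcy2 with 20.2 FPKM (10.5 to 11.9) and Casq1 with 2096 (965 to 1074), and low in Mt-co1 with 25616 (46044 to 48788) and Trim13 with 1.0 (1.41 to 1.54). Ischemic library 3 stood high in Zfp93 with 1.33 FPKM (0 to 0.08). Ischemic library 4 stood low in Anp32b with 20 FPKM (24.6 to 25.8) and high in the share of counts from its 10 most abundant genes with 35.6% (31.7 to 32.4%).

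Sham library 2 stood high in Myh7 with 1864 FPKM (37.6 to 406) and in the Myh7 share with 40.5% (0.63 to 8.86%). It stood high in Acss3 with 2.71 FPKM (1.67 to 1.86), Actc1 with 38.3 (5.22 to 11.1), Hspa8 with 384 (311 to 331) and Ncam1 with 3.78 (1.04 to 1.47), and low in Enpp2 with 4.6 (5.59 to 5.94). Sham library 4 stood high in Fbxo32 with 167 FPKM (27.9 to 54.0) and Mxi1 with 32.2 (25.5 to 27.2), and sham library 1 in Adgre1 with 1.7 (0.536 to 0.831).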

How the results depend on the processing

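The count of 0 genes for ischemia against sham became 11 with DESeq2, 571 with library quality weights, 6 without sham soleus 4 and, in an alternative chosen after seeing the data, 8 with weights on gastrocnemius alone; leaving out 1 gastrocnemius library gave 0 to 1 (Lzts1, without sham 2). At equal fibre mix it became 41 with DESeq2 and, likewise added, 3 in all libraries without sham soleus 4 (0 to 0 with 1 library left out). The genes that follow the mix numbered 766 with the Myh7 percent, 775 over all libraries, 3276 over all without sham soleus 4 (added), 3075 with DESeq2, 3113 with weights and 351 to 2266 with 1 library left out. For the difference from soleus it became 1 with library totals, the filter on gastrocnemius, weights, limma or without sham soleus 4, 2 with DESeq2, and 0 to 1 with 1 library left out. Genes without overlap numbered 187 to 726 with 1 library left out: 285 without ischemic library 5, 411, 444 and 299 without sham libraries 1, 2 and 4. The causes were not tested.

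The replicate block gave 0 genes for ischemia against sham and at equal mix, 1009 for the slope, and a depth difference of 8.08 M counts (exact sign-flip p = 0.188). The numbers were not taken to pair ischemic with sham libraries. With 1 library left out, the differences ran from 8.1 to 19.1 points for the Myh7 share, 386 to 703 genes at 1 FPKM (exact permutation p = 0.0159 without ischemic library 2, 0.0476 without sham 1), 5.74 to 9.4 M counts (p = 0.0635 in 6 cases), 3.98 to 7.76 points of mitochondrial counts (p = 0.0317 without ischemic library 2) and -0.0507 (without ischemic library 4) to 1.04 points for the top 10 genes.

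Of 2262 values of 99 genes, 20 in 7 genes changed sign, none past the threshold. With 1 library left out, Comp ran from -0.66 to 1.62, Pparg from -0.20 to 0.91 and Prx from -0.19 to 0.54, each lowest without ischemic library 1. Alas2 ran from -0.04 (without sham 3 or 4) to 0.58, Bdh1 from -0.99 to 0.13 (without sham 2), Ccl2 from -0.53 to 0.20 (without sham 1) and Hbb from -0.47 to 0.17 (without sham 1; 0.03 without sham 2). Bdh1 was 0.02 and 0.05 under the block. Ccl2 was 0.41 with weights and 0.06 on log2 FPKM + 0.1. Hbb was 0.41 and 0.40 with weights, 0.17 and 0.18 on log2 FPKM + 1 and + 0.1, and 0.11 and 0.12 under the block.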
